A study of Rattus norvegicus with 8 samples.

Results

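Neurotrophins, the neuropeptide receptor Tacr1 and the bradykinin receptors were followed in the Achilles tendon of rats killed immediately after running. The members were 9 gene symbols chosen by name: the ligands Bdnf, Ntf3 and Gdnf, the neurotrophin receptors Ngfr, Ntrk2 and Ntrk3, the substance P receptor Tacr1 and the bradykinin receptors Bdkrb1 and Bdkrb2. Of these, 7 had a row among the 15590 genes of the table, and Bdnf and Bdkrb1 were not analysed here. FPKM gives the fragments of a gene per kilobase of its length, relative to the depth of the library. Genes were tested where 4 or more libraries reached an FPKM of 0.5, a filter that kept 6 of the 7 among 13863 tested genes, and Gdnf lay under it.

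Polyadenylated RNA was measured in whole right Achilles tendons of wild-type male Sprague-Dawley rats aged 8 to 10 weeks. The running group (0 h p.r., post-running, n = 4) ran for 1 h on a treadmill at 20 m/min and an incline of 10 degrees, and airflow and a mild electric stimulus kept the rats moving. The naïve controls (NC, n = 4) kept their normal cage activity. According to the methods, the controls were killed together with a group of 12 h p.r., so running, the stimulus on the treadmill and the hour of death cannot be told apart. The labels number the libraries 1 to 4 in each group without stating that each came from a separate rat, so the p-values measure the spread between these libraries.

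Neurotrophins are secreted growth factors that keep sensory and sympathetic neurons alive and tune the sensitivity of pain fibres. They are made as precursors, are trimmed by proteases, and act through the Trk receptor tyrosine kinases and through the shared receptor p75, which Ngfr encodes. GDNF acts in a similar way on other sensory neurons through Ret and a GFRα co-receptor. Substance P from pain fibres acts on Tacr1, and bradykinin, cut from a plasma protein in injured tissue, acts on Bdkrb2. Tendon has few nerve fibres, which run mostly in its outer sheaths, and the cell bodies of its sensory neurons lie outside the tissue.

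The depth was 11350560 to 17897056 reads per library, recovered from the steps between FPKM values and summed over the listed genes. The tendon markers fitted the labelled tissue, since all 8 of 8 listed genes were tested and Tnmd, a marker of tendon cells, lay between 87.0 and 348 FPKM in every library. In bulk tissue, fewer cells of a type and less RNA per cell cannot be told apart. Markers of other tissues differed between libraries. The summed FPKM of 10 adipocyte markers was 3125 to 6362 in NC against 1015 to 2304 in 0 h p.r., and 6 of the 10 passed both thresholds as lower. The sum of 8 bone markers was 299.7 to 466 in NC against 553 to 2160 in 0 h p.r., and that of 7 cartilage markers was 10.8 to 96.9 and 104 to 404, with no marker of either list past the thresholds. The sum of 10 muscle markers was 4803 to 7742 in NC against 1047 to 34158 in 0 h p.r., with replicate 1 the highest and replicate 4 the lowest. The part of these differences in the results was not tested.

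No member passed the test. The limma comparison on log2(FPKM + 0.5) called 0 of the 6 tested members at an adjusted p under 0.05 with a fold of at least 2, while 2.70% of the tested genes were called, 1.80% as higher and 0.894% as lower in 0 h p.r. None passed at an unadjusted p under 0.05 either, against 22.6% of the tested genes, and the adjusted p alone called no member and 5.72% of the tested genes. The voom fit on recovered reads gave the same 0 calls, with 0 members at an unadjusted p under 0.05. The groups overlapped in all 7 members with a row, whereas 15.6% of the tested genes had groups that did not overlap. The log2 change lay above 0 for 4 members and below 0 for 2.

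**Figure D1:**
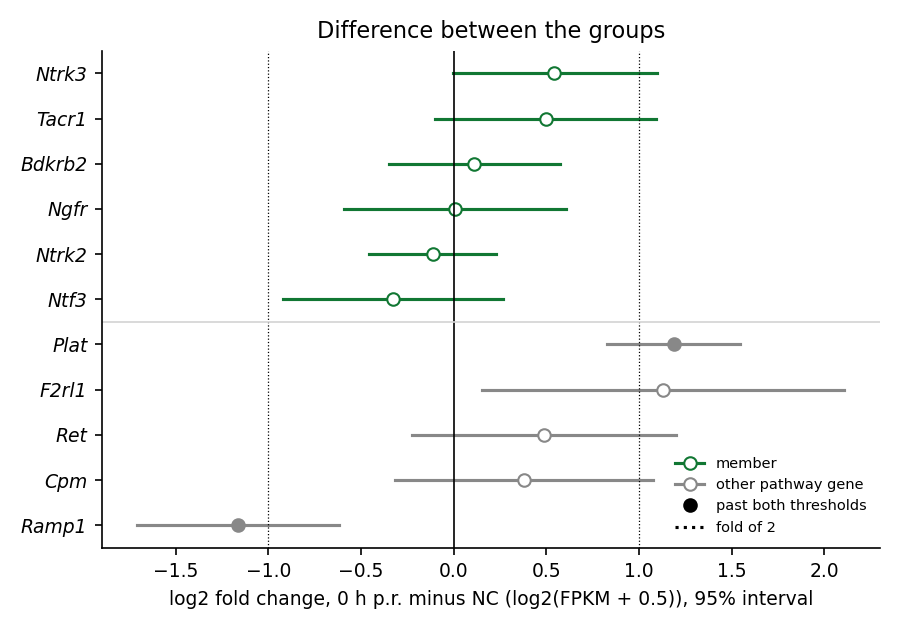
Log2 difference of 0 h p.r. minus NC from limma on log2(FPKM + 0.5) for the 6 tested members (green) and 5 other pathway genes described further on (grey), with bars for the 95% confidence interval, filled points for genes past both thresholds, dotted lines at a fold of 2 and a solid line at 0. The interval of each member crosses 0, those of Ntrk3 and Tacr1 reach past a fold of 2 on the higher side, and Plat and Ramp1 are the filled points.

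The 95% intervals of 4 of the 6 members, Ntf3, Ngfr, Ntrk2 and Bdkrb2, lay within a fold of 2 in both directions, as did those of 78.3% of the tested genes. These intervals are on the log2(FPKM + 0.5) scale, which shrinks the changes of low genes, so for Ntf3 they do not show that a 2-fold fall in FPKM itself lay outside. The median standard error of the members was 0.25 on the log2 scale, and that of all tested genes was 0.18. The median log2 change was 0.06 for the members and -0.0014 for all tested genes.

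The members covered a wide range of levels. Averaged over the 8 libraries, Tacr1 had the highest level at 15.9 FPKM, followed by Bdkrb2 at 9.14, Ntrk2 at 6.66, Ngfr at 4.05, Ntrk3 at 3.04, Ntf3 at 2.70 and Gdnf at 0.501. Tacr1 was above Bdkrb2, Bdkrb2 above Ntrk2, and Ntrk2 above Ngfr in 8 of 8 libraries each. Ngfr was above Ntrk3 in 6 of 8, all 4 NC and 2 of the 4 running libraries, and Ntrk3 was above Ntf3 in 4 of 8, 1 NC and 3 running libraries. The order of these 3 genes was thus not the same in both groups: mean FPKM was 3.05 for Ntf3 and 2.41 for Ntrk3 in NC, but 2.34 and 3.67 after running. No test was run on this order. Both receptors for peptides stood above the 3 neurotrophin receptors in every library, and over the 8 libraries both ligands had the lowest means. The tested genes were also ranked by their mean log2(FPKM + 0.5). Tacr1 was at percentile 67.8, Bdkrb2 at 53.2, Ntrk2 at 44.1, Ngfr at 30.8, Ntrk3 at 24.3 and Ntf3 at 22.2.

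**Figure D2:**
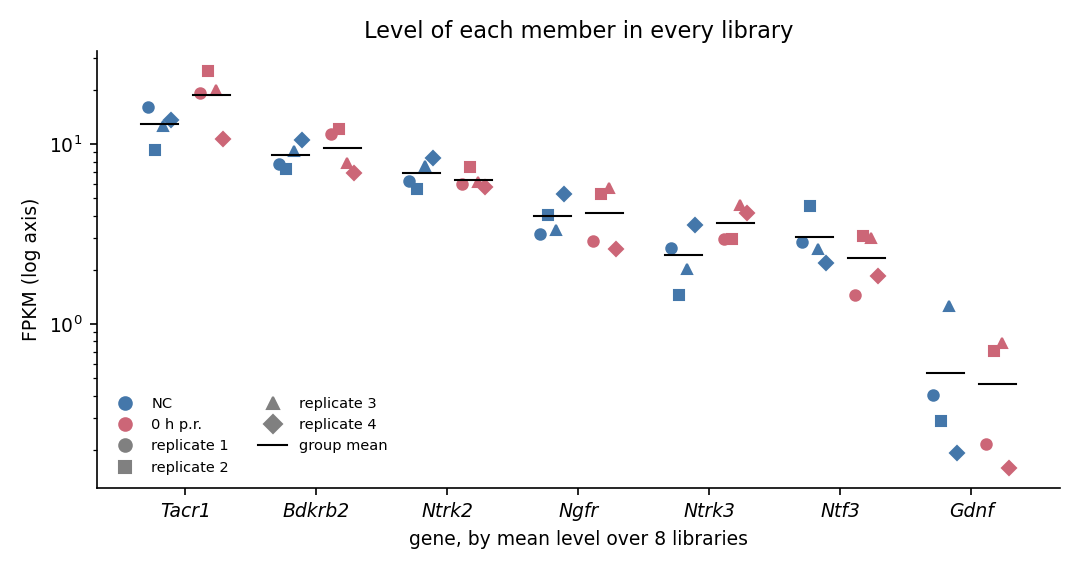
FPKM on a log axis of the 7 members in each library, with NC in blue, 0 h p.r. in red, a marker shape for each replicate number and a bar at the group mean. The groups overlap for every member, and Tacr1 has 3 of its 4 0 h p.r. libraries above all NC libraries.

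RefSeq start sites on the rat build GRCr8 were found for 3 of the 7 members with a row, Tacr1, Gdnf and Ntf3. The table has Ntf3 with several start sites, and Ngfr, Ntrk2, Ntrk3 and Bdkrb2 had no entry. The 250 bases before the start are printed for Tacr1 and Gdnf, the members with the highest and the lowest level, and for Ramp1, the receptor subunit described further on that passed the test as lower. The files used the build Rnor_6.0, so these positions locate the start sites on GRCr8 only. Tacr1 lay at chr4:116478367-116478616, Gdnf at chr2:58621077-58621326 and Ramp1 at chr9:99212866-99213115, all on the plus strand. Capitals mark the motif TGACG, the core of the element bound by CREB, or its reverse complement CGTCA, and the motif TATAAA of the TATA box, or its reverse complement TTTATA.
Tacr1: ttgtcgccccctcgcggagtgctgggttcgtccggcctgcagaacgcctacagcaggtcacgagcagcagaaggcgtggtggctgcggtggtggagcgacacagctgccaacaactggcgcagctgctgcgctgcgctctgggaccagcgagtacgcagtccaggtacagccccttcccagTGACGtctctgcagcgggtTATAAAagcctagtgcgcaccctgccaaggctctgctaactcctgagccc
Gdnf: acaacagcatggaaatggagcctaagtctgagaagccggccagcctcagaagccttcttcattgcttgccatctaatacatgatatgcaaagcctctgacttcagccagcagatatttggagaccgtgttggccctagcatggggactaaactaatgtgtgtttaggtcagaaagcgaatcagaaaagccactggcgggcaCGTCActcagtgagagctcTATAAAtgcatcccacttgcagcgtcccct
Ramp1: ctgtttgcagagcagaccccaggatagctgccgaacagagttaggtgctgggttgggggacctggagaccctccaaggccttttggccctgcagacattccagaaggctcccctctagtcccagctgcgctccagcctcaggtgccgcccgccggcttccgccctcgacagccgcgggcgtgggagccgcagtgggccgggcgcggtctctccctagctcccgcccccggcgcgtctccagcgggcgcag
In Tacr1, TGACG began 69 bases before the start and TATAAA 50 bases before it. In Gdnf, TGACG lay on the minus strand, its match beginning 49 bases before the start, and TATAAA began at 30 bases. The window of Ramp1 held neither, which says only that these letters are not in it. Of 33469 windows of the same length, 18.2% held TGACG and 12.9% held TATAAA on either strand, so both motifs are common and a match is not shown to be a site.

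Ntf3 (ENSRNOG00000019716) encodes neurotrophin-3, the ligand of Ntrk3, which supports the sensory neurons that serve muscle and tendon stretch. Its FPKM in NC replicates 1 to 4 was 2.85, 4.53, 2.62 and 2.198. In 0 h p.r. it was 1.45, 3.08, 3.003 and 1.85. Replicates 1 and 4 of 0 h p.r. lay below all NC libraries and the other two lay inside the NC range. The mean was 3.05 ± 1.02 (SD, n = 4) in NC against 2.34 ± 0.821 (SD, n = 4) in 0 h p.r., a log2 difference of -0.33 (SE 0.26, 95% interval -0.92 to 0.26, limma adjusted p = 0.520). The values rested on 30 to 87 recovered reads per library, and the exact two-sided permutation test over the 70 assignments of libraries gave p = 0.314.

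Gdnf (ENSRNOG00000012819), the glial cell line-derived factor, was at the limit of detection. Its FPKM was 0.402, 0.288, 1.27 and 0.192 in NC against 0.215, 0.709, 0.780 and 0.158 in 0 h p.r. These values came from 5, 2, 13 and 2 reads and from 2, 9, 7 and 2 reads, so 4 of the 8 libraries were under the floor of 3 reads used here. NC replicate 3 had the highest value and 0 h p.r. replicate 4 the lowest. In the fit without the filter the log2 difference was -0.06 (95% interval -0.82 to 0.69, limma adjusted p = 0.943). A difference was not detectable at this depth.

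Ngfr (ENSRNOG00000005392) encodes p75, which binds all neurotrophins with or without their precursor part and is made by Schwann cells and some neurons. NC replicates 1 to 4 had 3.18, 4.06, 3.33 and 5.31 FPKM. The 0 h p.r. replicates had 2.89, 5.32, 5.71 and 2.62 FPKM. The 0 h p.r. group split into a low pair, replicates 1 and 4, and a high pair, replicates 2 and 3, on either side of all 4 NC libraries. The means were 3.97 ± 0.971 and 4.13 ± 1.604 (SD, n = 4 each), with a log2 difference of 0.01 (95% interval -0.59 to 0.61, limma adjusted p = 0.991). The summed FPKM of 12 Schwann cell markers was 314 to 476 in NC against 203 to 336 in 0 h p.r., and none of its 11 tested genes passed. S100b made up most of that sum, at 200.5 to 379 FPKM in NC and 122 to 262 after running, while 5 of the 11 log2 changes lay above 0 and 6 below. In 0 h p.r. that sum was 227, 298, 203 and 336 in replicates 1 to 4, so Ngfr was highest in the library with the lowest sum.

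Ntrk2 (ENSRNOG00000018839) encodes TrkB, the receptor for the brain-derived factor, in a kinase form and in shorter forms without the kinase that many cells other than neurons make. Values per gene do not separate these forms. Its FPKM was 6.27, 5.64, 7.58 and 8.35 in NC against 6.04, 7.46, 6.18 and 5.76 in 0 h p.r. All 4 of the 0 h p.r. libraries lay inside the NC range. It was the steadiest member, with the highest library 1.48 times the lowest and 597 to 1446 reads per library. The means were 6.96 ± 1.23 and 6.36 ± 0.753 (SD, n = 4 each), and the log2 difference was -0.11 (SE 0.15, 95% interval -0.46 to 0.23, limma adjusted p = 0.729).

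Ntrk3 (ENSRNOG00000018674) encodes TrkC, the receptor for neurotrophin-3, and had the largest log2 difference among the members. NC had 2.63, 1.45, 2.03 and 3.54 FPKM in replicates 1 to 4. The 0 h p.r. libraries had 2.95, 2.96, 4.597 and 4.15. Replicates 3 and 4 of 0 h p.r. lay above every NC library, and replicates 1 and 2 lay below NC replicate 4. The mean was 2.41 ± 0.892 (SD, n = 4) in NC against 3.67 ± 0.838 (SD, n = 4) in 0 h p.r. The log2 difference of 0.54 (SE 0.24, 95% interval -0.01 to 1.10) did not pass, with a limma adjusted p of 0.227. The exact two-sided permutation test gave p = 0.114. Leaving out 1 library at a time gave log2 differences of 0.37 to 0.72, all above 0, and limma adjusted p of 0.129 to 0.450.

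The ratio of Ntrk2 to Ntrk3 within a library sets both Trk receptors on 1 scale, since FPKM is per length. The plain ratio of FPKM was 2.38, 3.88, 3.74 and 2.36 in NC against 2.04, 2.52, 1.34 and 1.39 in 0 h p.r. TrkB transcripts were above TrkC transcripts in every library, and the margin was smallest in 0 h p.r. replicates 3 and 4. On the log2(FPKM + 0.5) scale the ratio was 1.39 ± 0.31 (SD, n = 4) in NC against 0.74 ± 0.39 (SD, n = 4) in 0 h p.r., a difference of -0.66, and 0 h p.r. replicate 2 lay inside the NC range. Leaving out 1 library at a time moved that difference between -0.81 and -0.54. No test was run on the ratio, which was read with the levels of its parts known. The ratio of Ntrk2 to Ngfr was 0.75 ± 0.29 in NC against 0.63 ± 0.43 in 0 h p.r. (log2, SD, n = 4 each), and the groups overlapped widely.

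**Figure D3:**
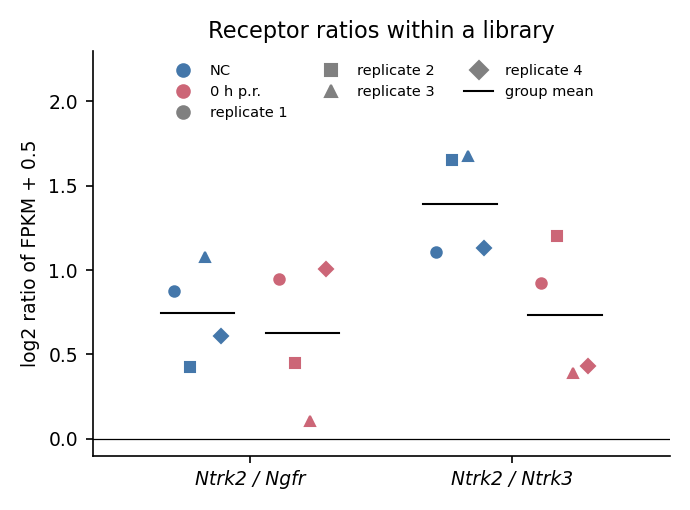
Log2 ratio of Ntrk2 to Ngfr and of Ntrk2 to Ntrk3 within each library, computed on FPKM + 0.5, with 1 point per library and a bar at the group mean. For Ntrk2 to Ntrk3 the NC mean is 1.39 and the 0 h p.r. mean 0.74, and the groups overlap in both ratios.

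Tacr1 (ENSRNOG00000005853) encodes the neurokinin-1 receptor, through which substance P acts on vessels, immune cells and fibroblasts. Its FPKM in NC was 16.1, 9.24, 12.6 and 13.6. In 0 h p.r. it was 19.3, 25.7, 20.02 and 10.6. Replicates 1, 2 and 3 of 0 h p.r. lay above every NC library, and replicate 4 lay below 3 of the 4 NC libraries. The mean was 12.9 ± 2.85 (SD, n = 4) in NC against 18.9 ± 6.21 (SD, n = 4) in 0 h p.r. The log2 difference was 0.50 (SE 0.26, 95% interval -0.10 to 1.09) with a limma adjusted p of 0.308, and the exact two-sided permutation test gave p = 0.171. The result leaned on single libraries. Without 0 h p.r. replicate 4 the log2 difference was 0.74 with a limma adjusted p of 0.0541, and without 0 h p.r. replicate 2 it was 0.33 with 0.578. Neither passed, and the libraries had 112 to 570 reads of Tacr1.

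Bdkrb2 (ENSRNOG00000047300) encodes the B2 receptor, which is present in resting tissue and answers to bradykinin on vessels and sensory endings. It had 7.73, 7.24, 9.19 and 10.6 FPKM in NC against 11.4, 12.2, 7.83 and 6.89 in 0 h p.r. Replicates 1 and 2 of 0 h p.r. lay above every NC library, replicate 3 lay inside the NC range and replicate 4 lay below it. The means were 8.69 ± 1.52 and 9.58 ± 2.61 (SD, n = 4 each), a log2 difference of 0.11 (95% interval -0.35 to 0.57, limma adjusted p = 0.813). In 0 h p.r. replicate 4, Gdnf, Ngfr, Ntrk2, Tacr1 and Bdkrb2 each had their lowest value among the 4 running libraries, while Ntrk3 had its next to highest. The same library had the lowest muscle sum and the highest bone and cartilage sums of its group.

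The genes around the members were read from 6 lists that hold 85 symbols, of which 57 had a row and 44, the members among them, were tested. Both thresholds called 1 gene as higher, Plat, and 1 as lower, Ramp1. At an unadjusted p under 0.05 there were 10 of the 44, beside 22.6% of all tested genes. The median log2 change of the 44 was 0.01. That share was close to that of all tested genes.

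**Figure D4:**
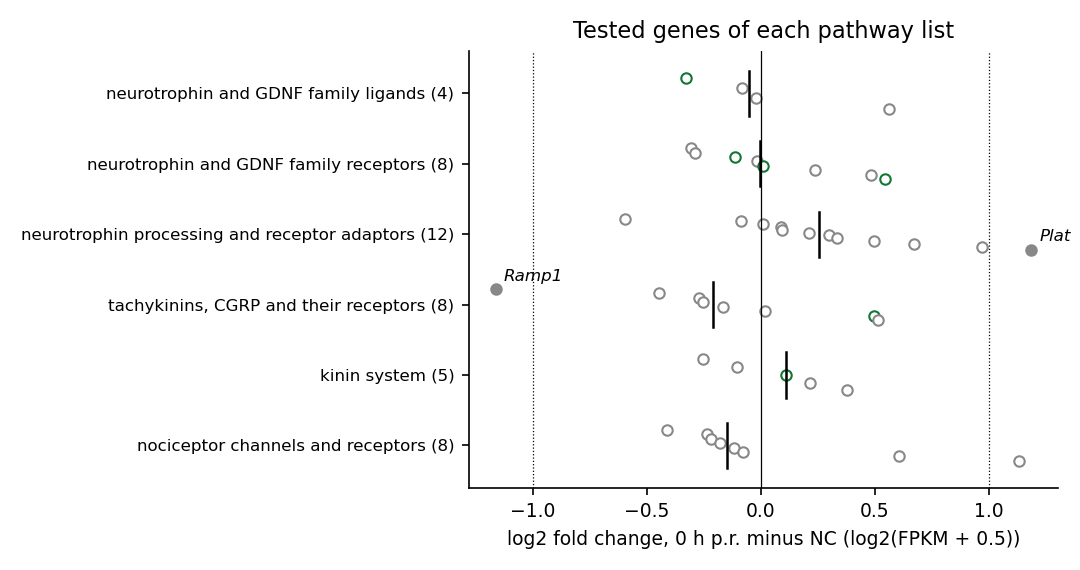
Log2 difference of 0 h p.r. minus NC for each tested gene of the 6 pathway lists (number tested in brackets), with members in green, other genes in grey, filled points for genes past both thresholds, a short bar at the median of each list and dotted lines at a fold of 2. The points lie on both sides of 0 in each list, and the filled points are Plat at 1.19 and Ramp1 at -1.16.

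Among ligands of the neurotrophin and GDNF families, 4 of 8 listed genes were tested and 0 were called. Among their receptors and co-receptors 8 of 13 were tested and 0 were called, with 4 on each side of 0. Ret, the signalling receptor for GDNF, had the largest difference of that list that was not a member, at 3.01 ± 0.584 FPKM in NC against 4.78 ± 2.44 in 0 h p.r. (SD, n = 4 each), a log2 difference of 0.49 with a limma adjusted p of 0.415. Its higher mean came from 0 h p.r. replicates 1 and 2, at 5.91 and 7.68 FPKM, while replicates 3 and 4 had 2.56 and 2.97.

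Genes that process neurotrophins or bind their receptors made up the list with the most positive changes. Of its 16 listed symbols 12 were tested, 10 of them with a log2 change above 0. The median of the 12 was 0.26, beside -0.0014 for all tested genes. Only Plat passed both thresholds. Plat (ENSRNOG00000019018) encodes tissue plasminogen activator, the protease that makes plasmin, which in turn can cut the precursor of the brain-derived factor. It had 43.4, 49.3, 30.6 and 42.0 FPKM in NC against 92.9, 95.6, 105 and 81.4 in 0 h p.r. Every running library lay above every control, and the lowest of them was well clear of the highest control. The means were 41.3 ± 7.83 and 93.7 ± 9.64 (SD, n = 4 each). Plat rose by 1.19 on the log2 scale (SE 0.16, 95% interval 0.83 to 1.55, limma adjusted p = 0.00549), and it passed in all 8 fits that left out 1 library, with limma adjusted p of 0.00522 to 0.0257. Furin, a protease that trims neurotrophin precursors inside the cell, also had groups that did not overlap, at 26.4 ± 4.76 and 37.0 ± 2.02 FPKM (SD, n = 4 each, limma adjusted p = 0.0826). Frs3, an adaptor of Trk receptors, had 2.92 ± 0.264 and 1.79 ± 0.490 FPKM, with groups apart and a limma adjusted p of 0.0808. Furin and Frs3 were singled out after their values were seen. Groups that did not overlap were found in 11.4% of the 44 tested pathway genes, beside 15.6% of all tested genes.

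In the list of tachykinins, CGRP and their receptors, 8 of 14 genes were tested, and 1 was called, as lower. Ramp1 (ENSRNOG00000019926) encodes the protein that turns the receptor Calcrl into the receptor for CGRP, the peptide that pain fibres release together with substance P. It had 85.6, 70.6, 56.5 and 47.0 FPKM in NC against 23.8, 23.4, 25.5 and 43.1 in 0 h p.r. The groups did not overlap, but 0 h p.r. replicate 4 came close to NC replicate 4. The means were 64.9 ± 16.8 and 29.0 ± 9.47 (SD, n = 4 each). Ramp1 fell by 1.16 on the log2 scale (SE 0.24, 95% interval -1.71 to -0.62, limma adjusted p = 0.0296). The call was lost in 6 of the 8 fits that left out 1 library. The limma adjusted p was 0.0739, 0.0985 and 0.0862 without 0 h p.r. replicates 1, 2 and 3, and 0.0857, 0.0623 and 0.0600 without NC replicates 1, 2 and 3. It was 0.00717 without 0 h p.r. replicate 4 and 0.0331 without NC replicate 4. The log2 difference itself lay between -1.37 and -1.02 in these 8 fits. Calcrl itself had 30.8 ± 2.99 and 25.4 ± 2.14 FPKM (log2 difference -0.27, limma adjusted p = 0.207). Ramp2, which turns Calcrl into an adrenomedullin receptor, had 161 ± 44.8 and 115 ± 7.60 FPKM (log2 difference -0.45, limma adjusted p = 0.190). The summed adipocyte markers were lower in the same libraries in which Ramp1 was lower, and their part in its value was not tested.

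**Figure D5:**
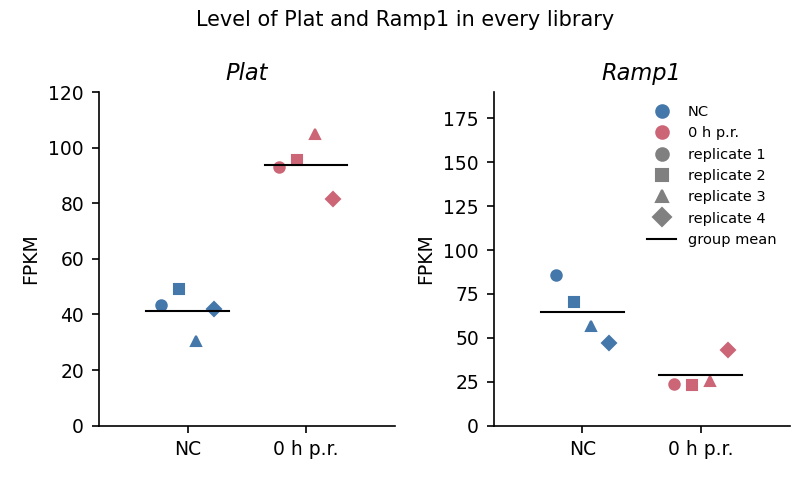
FPKM of Plat and Ramp1 in each library, with NC in blue, 0 h p.r. in red, a marker shape for each replicate number and a line at the group mean. The groups do not overlap in either panel, with Plat higher and Ramp1 lower in 0 h p.r.

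In the kinin list 5 of 13 genes were tested and 0 were called. Cpm, a carboxypeptidase that trims kinins into the form that acts on the B1 receptor, had the largest difference that was not a member, at 2.22 ± 0.599 FPKM in NC against 3.23 ± 1.68 in 0 h p.r. (SD, n = 4 each, log2 difference 0.38, limma adjusted p = 0.526). Its higher mean came mostly from 0 h p.r. replicate 4, at 5.55 FPKM, and without that library the log2 difference was 0.11. Ace, which breaks down bradykinin, had 65.3 ± 15.7 and 60.4 ± 13.4 FPKM with a log2 difference of -0.11 (limma adjusted p = 0.824). Among nociceptor channels and receptors 8 of 22 were tested and 0 were called, with 6 log2 changes below 0 and 2 above. Trpv1, the capsaicin and heat channel of pain fibres, had 0.996 ± 0.275 FPKM in NC against 0.619 ± 0.142 in 0 h p.r. (SD, n = 4 each, log2 difference -0.41, limma adjusted p = 0.234).

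F2rl1, the protease-activated receptor 2, had the largest difference of that list. It had 1.27, 2.61, 3.07 and 2.82 FPKM in NC against 10.8, 6.93, 6.66 and 2.01 in 0 h p.r. As for Tacr1, replicates 1 to 3 of 0 h p.r. were above every control and replicate 4 was not. The log2 difference was 1.13 (SE 0.43, 95% interval 0.15 to 2.11) with a limma adjusted p of 0.161. Without 0 h p.r. replicate 4 it was 1.57 and passed with a limma adjusted p of 0.0156, and with array weights it was 1.31 and passed with 0.0437. The other 7 fits that left out 1 library did not pass, with limma adjusted p of 0.202 to 0.346 and log2 differences of 0.85 (without 0 h p.r. replicate 1) to 1.24.

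Markers of axons did not move together. Of 9 axonal markers with a row 6 were tested, with 3 log2 changes above 0 and 3 below, and 1 passed both thresholds. Tubb3, a tubulin of neurons, had 0.732, 0.571, 1.04 and 0.989 FPKM in NC and, after running, 2.72, 4.93, 2.91 and 2.13, and rose by 1.42 on the log2 scale (limma adjusted p = 0.0131). Prph, a filament protein of peripheral neurons with the highest level of the list in all 8 libraries, had 12.5 to 27.3 FPKM in NC and 8.45 to 14.8 after running (log2 difference -0.63, limma adjusted p = 0.179). The summed FPKM of the list was 25.2 to 42.7 in NC and 23.3 to 31.0 after running. Nefm and Snap25 were at 0 in NC replicate 2. The part of these transcripts in the members' values was not tested.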

How the data were processed

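RNA was measured in 8 libraries, 4 NC and 4 0 h p.r., grouped and numbered by their titles. According to the methods, the authors aligned stranded reads to Rnor_6.0 with HISAT2 2.1.0, counted them with featureCounts 1.6.3 and deposited FPKM per gene, which were also scaled between libraries (median ratios to the gene means of 0.999 to 1.01). Deposited columns with the log2 ratio and the p-values of the authors' own comparison in DESeq2 1.30.1 were not used.

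Whole reads were recovered from the steps of FPKM for 15590 of 15590 genes (100%, within 0.02 of a whole number). The floor of 3 reads covers counting error only.

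Values were compared as log2(FPKM + 0.5), a scale that understates changes of low genes, with limma 3.58.1 in R 4.3.3 (lmFit, eBayes with a trend, two-sided, no covariate) and Benjamini-Hochberg adjustment over 13863 genes (1727 were left out by the filter). A call needed an adjusted p under 0.05 and a fold of at least 2. Single values were also given an exact permutation test. The scripts were tested on simulated reads with known changes and a spread that was set, not measured. At a 2-fold change, an adjusted p under 0.05 called 17.3% of the changed genes. At a 4-fold change, both thresholds called 97.4%. A missing call alone thus does not exclude a 2-fold change. The alternatives were a pseudocount of 0.1 or 1, the filter left out or set to a mean FPKM of 2, median-ratio and quantile scaling, array weights, no trend, voom on recovered reads, a replicate block and each library left out.

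The members and lists were chosen with earlier results of these data known. The text names all members, each listed gene past both thresholds and, from each list, the tested gene with the largest change that is no member. A result that the rule would name is not reported here. Others named were chosen after their values were seen. Python 3.11.15 made the tables and motif search.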

Additional observations from a re-analysis of the deposited data

Results flagged for a closer look

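Ramp1 in 0 h p.r. replicate 4 stood apart from its group. It had 43.09 FPKM, while the other 3 running libraries had 23.4 to 25.5, and the gap to the nearest of them was 0.894 of the range of the group, above the critical value of Dixon's test at the 95% level. In all, 26 groups of 4 values were checked in this way, and chance gives such a gap in about 1 of 20 groups.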

How the results depend on the processing

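The count of 0 members past both thresholds was the same in all 19 alternatives. Among all tested genes the count of 374 became 212 with the replicate block and 793 at an adjusted p alone, voom on the recovered reads called 418, and leaving out 1 library gave 195 (without 0 h p.r. replicate 2) to 516 (without 0 h p.r. replicate 4), with 201 without 0 h p.r. replicate 3 and 217 without NC replicate 1. The 2 called pathway genes became 1 with the replicate block, where Ramp1 had a limma adjusted p of 0.106 and Plat 0.0367, and 1 to 3 when 1 library was left out. The log2 difference of Ngfr lay between -0.155 and 0.176 in those fits, with values below 0 without 0 h p.r. replicate 2 (-0.124) or 3 (-0.155) and without NC replicate 1 (-0.077) or 3 (-0.059). That of Bdkrb2 lay between -0.012 (without 0 h p.r. replicate 2) and 0.247. The cause of these shifts was not tested. The other 4 tested members kept their direction in every alternative. The replicate numbers are not shown to pair the libraries. Deviations of libraries with the same number correlated at -0.14, -0.071, 0.072 and 0.0056, and no library correlated best with its own number, a hint from the data and not from the design. Depth limits Gdnf, at 2 to 13 reads, and Ntf3, at 30 to 87 reads per library.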

Other observations

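Hrh1, the H1 histamine receptor, was not a named gene of its list and was singled out after its values were seen. It had 2.55, 3.07, 3.4 and 2.81 FPKM in NC against 5.35, 6.99, 6.04 and 2.13 in 0 h p.r. As in Tacr1 and F2rl1, replicates 1 to 3 of 0 h p.r. lay above every control and replicate 4 did not. Its log2 difference of 0.61 (95% interval -0.08 to 1.29) did not pass, with a limma adjusted p of 0.279.

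Pcsk5, a protease that trims precursor proteins, had 2.57, 2.08, 4.08 and 4.04 FPKM in NC against 3.22, 3.61, 5.55 and 25.9 in 0 h p.r., so its higher running mean came from replicate 4. The log2 difference was 0.97 (95% interval -0.31 to 2.25, limma adjusted p = 0.359), and this gene too was singled out after its values were seen.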
